A study of Homo sapiens with 4 samples.

Results

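The subject is a run of 40 zinc finger genes on the long arm of human chromosome 19, in the bands 19q13.41 and 19q13.42 by its working name, compared between A375 cells that had lost p53 and their parental line. The genes were taken by name, and all 40 were found among the 26484 gene rows of the deposited table. They lie at chr19:50025714-53580269 (GENCODE 29 on GRCh38), 18 on the plus and 22 on the minus strand. ZNF473 stands apart from the rest, with 1.52 Mb between it and ZNF175, and the other members fill 2.01 Mb from ZNF175 to ZNF331. The genes were chosen by measured values, the log2 differences of each knockout library from the parental mean, so those differences are a description. The counts of members called by fits across all genes are printed with their background, and nothing is read from them.

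A375 is an established human melanoma cell line. RNA was sequenced from 2 libraries of a p53 knockout of this line made with CRISPR-Cas9, labelled p53-/-, and from 2 libraries of the parental A375 line with wild-type p53. All were grown in DMEM, and no treatment is given in the labels. The knockout libraries carry the numbers 2 and 8 in the deposited table. Whether these are 2 clones or 2 cultures of 1 clone is not stated. The spread within a group may therefore not be that of independent replicates. Over all genes tested, the median absolute log2 difference was 0.23 between the knockout libraries and 0.09 between the parental ones. An edited line with p53 intact was not among the libraries analysed here, and loss of p53 therefore cannot be told apart from editing or from the selection of edited cells.

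Zinc finger proteins of this kind bind DNA through strings of C2H2 fingers, and most of them carry a KRAB domain at the other end. The KRAB domain recruits the corepressor TRIM28 (KAP1), which brings the histone methyltransferase SETDB1 and heterochromatin proteins to the bound site. Many KRAB zinc finger proteins bind transposable elements, LINE1 among them, and the gene clusters on chromosome 19 arose by repeated tandem duplication. The series title concerns repression of LINE1 elements by p53. Transposon RNA was not analysed here.

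Some members have closely alike start regions. RefSeq promoter windows (GRCh38.p14, 250 bases before to 50 after a start) were at hand for 32 of the 40 genes, in 45 windows. They are shown for 3 of the 8 members with the largest differences (ZNF528, ZNF578 and ZNF808) and for ZNF701 and ZNF845, the pair with the most alike windows. Capitals mark the GC box, GGGCGG or its reverse complement CCGCCC.
ZNF528, chr19:52397599-52397898, plus strand: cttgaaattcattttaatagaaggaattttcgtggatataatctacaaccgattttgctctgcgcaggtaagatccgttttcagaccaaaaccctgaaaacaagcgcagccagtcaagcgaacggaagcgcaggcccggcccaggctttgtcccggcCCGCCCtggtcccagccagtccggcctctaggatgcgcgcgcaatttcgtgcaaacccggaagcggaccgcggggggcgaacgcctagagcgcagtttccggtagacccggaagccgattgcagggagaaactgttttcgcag
ZNF578, chr19:52453303-52453602, plus strand: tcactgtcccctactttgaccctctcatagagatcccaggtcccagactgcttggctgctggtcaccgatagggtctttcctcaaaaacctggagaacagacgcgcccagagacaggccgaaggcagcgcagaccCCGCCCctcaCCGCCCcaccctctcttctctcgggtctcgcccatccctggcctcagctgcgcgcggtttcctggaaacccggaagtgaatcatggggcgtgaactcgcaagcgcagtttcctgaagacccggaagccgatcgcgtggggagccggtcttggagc
ZNF808, chr19:52527418-52527717, plus strand: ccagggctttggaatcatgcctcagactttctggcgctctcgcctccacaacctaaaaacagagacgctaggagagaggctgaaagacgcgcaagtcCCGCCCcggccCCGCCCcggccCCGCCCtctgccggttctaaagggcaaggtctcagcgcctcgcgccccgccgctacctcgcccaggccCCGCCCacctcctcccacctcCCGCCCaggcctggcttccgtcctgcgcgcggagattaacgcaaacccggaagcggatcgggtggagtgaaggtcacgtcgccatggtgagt
ZNF701, chr19:52570037-52570336, plus strand: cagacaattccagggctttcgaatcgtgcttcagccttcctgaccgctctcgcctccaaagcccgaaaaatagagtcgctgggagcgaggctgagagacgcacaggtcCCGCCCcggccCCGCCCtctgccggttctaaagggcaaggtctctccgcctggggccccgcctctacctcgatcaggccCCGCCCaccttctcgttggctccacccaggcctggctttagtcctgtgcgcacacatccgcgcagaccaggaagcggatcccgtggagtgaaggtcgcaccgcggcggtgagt
ZNF845, chr19:53333499-53333798, plus strand: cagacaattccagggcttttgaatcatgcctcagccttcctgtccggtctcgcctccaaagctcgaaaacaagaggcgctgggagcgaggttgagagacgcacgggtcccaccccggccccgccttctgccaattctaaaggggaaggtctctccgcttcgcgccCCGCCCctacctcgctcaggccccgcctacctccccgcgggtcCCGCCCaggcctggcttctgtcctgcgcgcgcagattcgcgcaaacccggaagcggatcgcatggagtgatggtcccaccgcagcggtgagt

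The ZNF701 and ZNF845 windows were 86.0% identical when aligned end to end. ZNF808 and ZNF611 followed at 83.4%, and 61 of the 496 pairs of genes reached 60% or more, against a median of 52.0%. A GC box stood in 30 of 45 windows of the cluster (66.7%), against 45.0% of all 35116 windows in the table. ZNF808 held 5 such boxes and ZNF528 only 1. The 12 letters CAGGCCCCGCCC, found by searching these windows for the stretch shared by most genes, stood in 14 of 45 windows (31.1%) on either strand, against 1.24% of all windows; they include a GC box. The cluster had a median of 23.0 CG pairs per window, against 14.0 in all windows.

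Each of the other motifs searched, on both strands, stood in at most 4 windows of the cluster. AAGATGGC, the core of the YY1 motif, was more frequent than in all windows, in 4 windows (8.89%, against 2.89% of all windows). TATAAA was less frequent, in 1 window (2.22%, against 11.5%). CTCGCGAG and the core of the ZNF143 motif were in 0 of the 45 windows, against 1.02% and 0.231% of all windows. The median log2 difference was 0.26 over 12 tested genes with the 12 shared letters, 10 of which lay above both parental libraries in both knockout libraries, and 0.40 over 19 without them, 15 of which did.

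Most of the cluster had more RNA in each knockout library than in each parental library. Of the 40 genes, 39 passed the filter on low values, a normalized count of 10 or more in 2 or more libraries, and were tested; ZNF534 did not. Of these 39, 28 lay above both parental libraries in both knockout libraries, as did 22.8% of all 15431 genes tested, and 0 lay below both, against 23.7% of all genes. The median difference between knockout and parental libraries, in log2(normalized count + 1), was 0.31 over the cluster and -0.0057 over all genes tested. In bulk RNA, more cells that use a gene and more RNA per cell cannot be told apart.

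Both knockout libraries showed this. The median over the 39 genes, set against the parental mean, was 0.38 for knockout library 2 and 0.27 for knockout library 8, comparisons that share the parental pair. In 33 of the 39 genes the knockout libraries lay on the same side of the parental mean (61.6% of all genes), and in all 33 that side was above it (30.7% of all genes). The other 6 genes had 1 knockout library on each side. Knockout library 2 was the higher of its pair in 28 of 39 genes (71.8%), against 49.5% of all genes tested.

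The tools differed in their calls. At an adjusted p of 0.05, limma called 0 of the 39 genes (0.0% of all genes tested), and without adjustment, at p under 0.05, it held 10 higher (5.85% of all genes) and 0 lower (6.16%). On recovered reads, the quasi-likelihood test of edgeR called 0 members as well (0.0% of all genes), with 11 higher at an unadjusted p under 0.05 (6.13%). DESeq2 called 1 member higher, ZNF528 (1.21% of the 16330 genes with an adjusted p), and 0 lower (1.22%). For 1 gene, exact permutation of 2 against 2 libraries reaches no p under 33.3%.

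**Figure D1:**
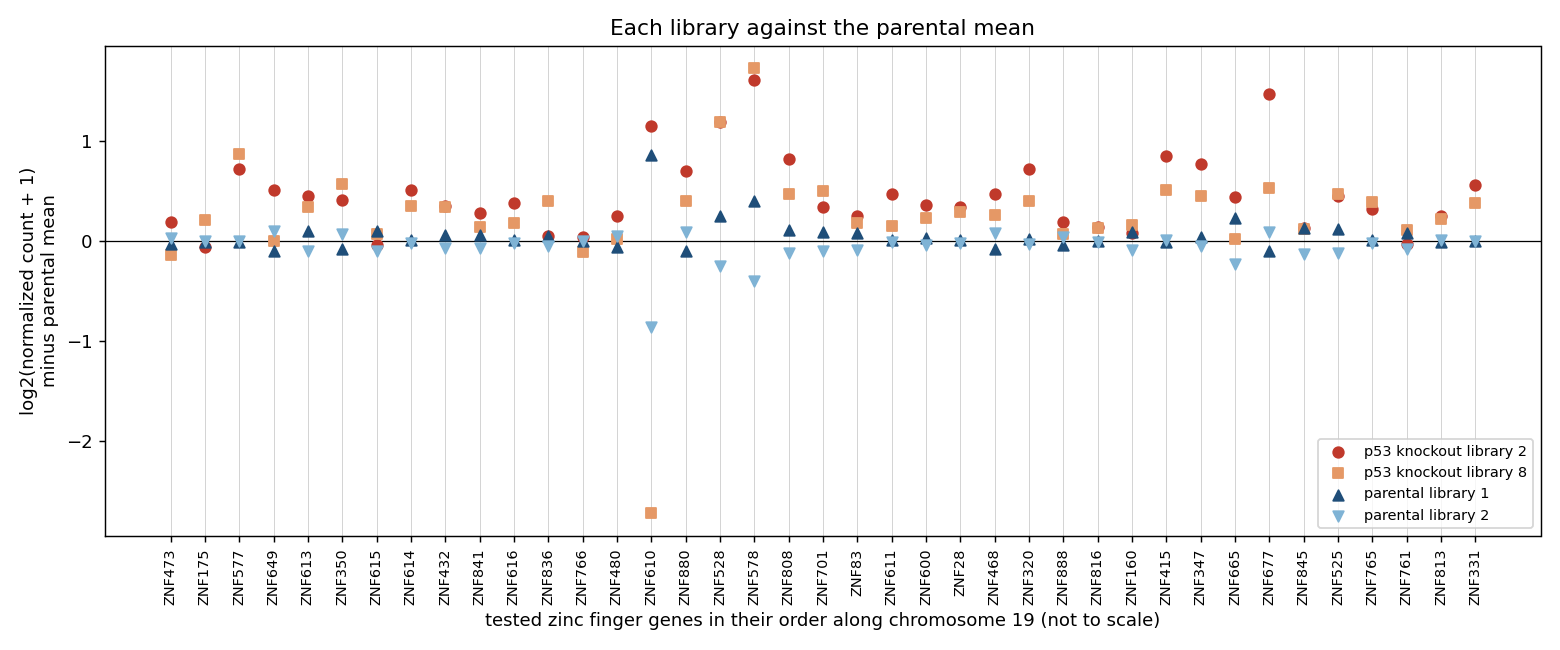
Each library's log2(normalized count + 1) minus the parental mean (vertical axis) for the 39 tested zinc finger genes in their order along chromosome 19 (horizontal axis, not to scale); circles and squares are knockout libraries 2 and 8, triangles the parental libraries. The knockout symbols lie above both triangles in 28 genes, 13 of them in an unbroken run from ZNF880 to ZNF816.

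Along the chromosome, the 28 genes fell into 8 runs of tested neighbours. The longest held 13 genes, from ZNF880 to ZNF816, and the next held 5, from ZNF614 to ZNF836. The genes at the centromere side, ZNF473 and ZNF175, were in no such run. ZNF331, an imprinted gene at the other end, was in the last one.

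The 8 largest differences among the genes whose groups did not overlap came from both weak and abundant members, ZNF578 and ZNF320 being the extremes. ZNF578, a KRAB zinc finger gene, had 24.2 and 26.4 normalized counts in knockout libraries 2 and 8, against 9.87 and 5.26 in parental libraries 1 and 2 (log2 difference 1.67 ± 0.43, limma standard error, n = 2 each, as below). These values rest on 23 and 27 reads in the knockout libraries, against 9 and 6 in the parental ones. The groups did not overlap, and the knockout libraries were close to each other. ZNF578 was the 1 member of the 39 that passed the filter on low values through the knockout libraries alone, so its place among the tested genes rests on the group in which it was high.

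ZNF528 had 273 and 272 normalized counts in the knockout libraries, against 141 and 99.995 in the parental ones (log2 difference 1.19 ± 0.23). Its knockout libraries were nearly equal and both parental libraries lay far below them. The row ZNF528-AS1, for a transcript that starts next to ZNF528 on the opposite strand, had 109 and 56.6 in the knockout libraries, against 26.3 and 21.1 in the parental ones. The libraries were strand-specific by kit, but the strand setting of the counting is not given in the sources used here.

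ZNF677, a gene reported as a tumour suppressor silenced by promoter methylation in lung cancer, had 116 and 59.6 normalized counts in the knockout libraries, against 38.4 and 43.9 in the parental ones (log2 difference 1.00 ± 0.39). Knockout library 2 stood well above knockout library 8, and both were above the parental pair. ZNF577 had 283 and 314, against 171 and 172 (0.80 ± 0.15), with the groups far apart and the parental libraries alike.

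ZNF415, whose product repressed p53- and AP-1-driven reporters in published assays, had 68.4 and 53.7 normalized counts in the knockout libraries, against 37.3 and 37.7 in the parental ones (log2 difference 0.68 ± 0.26). ZNF808, which silences retroelements and whose loss impairs pancreas formation in people, had 190 and 149, against 116 and 99.1 (0.65 ± 0.22). Both genes were highest in knockout library 2, and in neither did the groups overlap.

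ZNF347 had 390 and 314 normalized counts in the knockout libraries, against 236 and 222 in the parental ones (log2 difference 0.61 ± 0.17). ZNF320, the most abundant of these 8 genes, had 1474 and 1181, against 909 and 878 (0.56 ± 0.14). ZNF320 alone drew 1401 and 1209 reads in the knockout libraries, against 829 and 1001 in the parental ones. In both genes knockout library 2 was again the highest of the 4.

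The other 20 genes above both parental libraries had log2 differences from 0.13 (ZNF888) to 0.56 (ZNF880). They were, in chromosome order, ZNF613, ZNF350, ZNF614, ZNF432, ZNF841, ZNF616, ZNF836, ZNF880, ZNF701, ZNF83, ZNF611, ZNF600, ZNF28, ZNF468, ZNF888, ZNF816, ZNF525, ZNF765, ZNF813 and ZNF331. Over all 28 genes the ratio of the knockout to the parental mean ran from 1.10 to 3.34, with a median of 1.33.

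Some of these 20 have known roles, and ZNF350, ZNF432, ZNF614 and ZNF880 are given here after their values were seen. ZNF331 had 993 and 877 normalized counts in the knockout libraries, against 672 and 672 in the parental ones (log2 difference 0.47 ± 0.11). ZNF350 (ZBRK1), a repressor that binds BRCA1, had 212 and 237, against 151 and 168 (0.49 ± 0.17). In both genes the parental libraries were closer to each other than to either knockout library.

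ZNF432, described as a factor of DNA repair, had 341 and 340 normalized counts in the knockout libraries, against 280 and 256 in the parental ones (log2 difference 0.35 ± 0.14). ZNF614 had 797 and 712, against 565 and 554 (0.43 ± 0.11), and ZNF880 had 243 and 197, against 139 and 159 (0.56 ± 0.20). The groups were apart in all 3 genes. For ZNF836 the gap was almost nil: it had 72.6 and 92.8 in the knockout libraries, against 72.4 and 67.5 in the parental ones.

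In the other 11 tested genes the groups overlapped. They were ZNF473, ZNF175, ZNF649, ZNF615, ZNF766, ZNF480, ZNF610, ZNF160, ZNF665, ZNF845 and ZNF761, with log2 differences from -0.78 (ZNF610) to 0.26 (ZNF649). ZNF473 (ZFP100), a protein of the U7 snRNP that processes histone mRNA, had 912 and 730 normalized counts in the knockout libraries, against 786 and 817 in the parental ones (0.03 ± 0.14). ZNF175, once described as OTK18 in macrophages infected with HIV, had 341 and 409, against 353 and 355 (0.08 ± 0.15). In both genes the knockout libraries lay on either side of the parental pair.

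ZNF160 had 923 and 972 normalized counts in the knockout libraries, against 928 and 818 in the parental ones (log2 difference 0.12 ± 0.11). ZNF766, given after its values were seen, had 471 and 425, against 457 and 458 (-0.03 ± 0.12), and ZNF761 had 364 and 401, against 393 and 350 (0.04 ± 0.14). ZNF160 and ZNF761 sit between neighbours that lay above both parental libraries in both knockout libraries. A difference of under 2 standard errors does not show that they were unchanged.

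The knockout libraries parted in 6 genes more than in the other tested members. ZNF610 had 13.7 normalized counts in knockout library 2 and 0 in knockout library 8, against 10.96 and 2.63 in the parental libraries. A count of 0 in knockout library 8 allows up to 3 reads, or a normalized count of 2.93, by counting error alone. Knockout library 2 (13 reads) and parental library 1 (10 reads) lay above that limit, and parental library 2 (3 reads) did not. The few reads of ZNF610 therefore give no order between the knockout and parental groups. ZNF677 followed, with a log2 difference of 0.95 between knockout libraries 2 and 8.

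ZNF649, a KRAB protein reported to repress MAPK-driven reporters, had 358 and 251 normalized counts in the knockout libraries, against 234 and 268 in the parental ones. Only knockout library 2 stood outside the parental range. ZNF665 had 36.8 and 27.3, against 31.8 and 22.8, and ZNF836 and ZNF808 were the last of the 6, with log2 differences of -0.35 and 0.35 between knockout libraries 2 and 8. The median absolute difference between the knockout libraries was 0.16 over the cluster and 0.23 over all genes tested, and between the parental libraries it was 0.13 and 0.09.

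**Figure D2:**
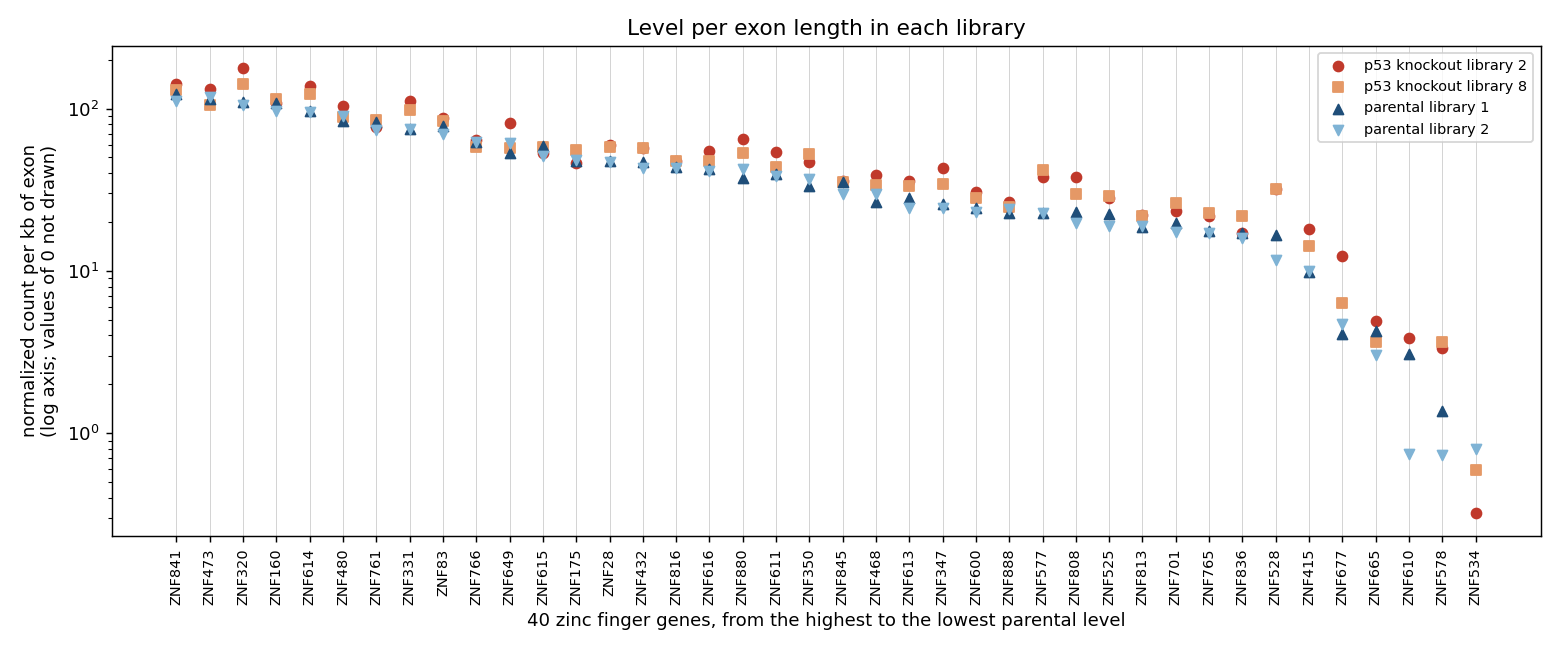
Normalized count per kb of exon (vertical axis, logarithmic; values of 0 are not drawn) of all 40 genes, ordered by their parental level, with 1 symbol per library. ZNF841, ZNF473, ZNF320 and ZNF160 were above 100 per kb in the parental mean, and ZNF534, ZNF578, ZNF610 and ZNF665 had the lowest levels.

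Levels within the cluster differed widely once they were divided by the length of all annotated exons of a gene in GENCODE 29. Per kb, the members ranged from 0.458 to 160 normalized counts in the knockout mean (median 43.7) and from 0.401 to 117 in the parental mean (median 33.9). ZNF841 was the highest in the parental mean, at 143 and 129 per kb in the knockout libraries and 123 and 112 in the parental ones. ZNF473, ZNF320 and ZNF160 followed at 116, 108 and 103 per kb in the parental mean. The parental libraries of ZNF473 overlapped in range with those of ZNF841, and those of ZNF320 with those of ZNF160, so neither pair has an order beyond its spread.

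In the knockout mean ZNF320 was the highest, at 160 per kb, and ZNF841 followed at 136. Their knockout libraries overlapped (177 and 142 per kb for ZNF320, 143 and 129 for ZNF841). Of the 50-base stretches of ZNF320, 72.1% occur elsewhere only in a gene that overlaps it. Its level per kb, in either group, therefore depends on how reads in shared exons were counted. At the low end, ZNF665 had 4.93 and 3.66 per kb in the knockout libraries, against 4.25 and 3.05 in the parental ones, and ZNF677 had 12.4 and 6.37, against 4.11 and 4.69. The parental libraries of these neighbours overlapped. ZNF534, the member that was not tested, had 1 and 2 reads in the knockout libraries, against 0 and 3 in the parental ones.

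Level and difference went partly together. Of the 12 tested members with at least 50 normalized counts per kb in the parental mean, 5 lay above both parental libraries in both knockout libraries, with a median log2 difference of 0.18. Of the 27 members under that level, 23 did, with a median of 0.35. Across the 39 genes Spearman's rho between the level per kb over all 4 libraries and the log2 difference was -0.32, a description over genes that share the same libraries. The cluster as a whole was weakly expressed, with a median of 235 normalized counts per gene (not divided by length), against 872 over all genes tested.

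Stretches of identical sequence make the split of reads between some members uncertain. In GENCODE 29 transcripts, the share of a gene's 50-base stretches that also occur in a gene elsewhere ran from 0% (ZNF473, ZNF480 and ZNF534) to 15.02% (ZNF888), with a median of 1.74%. The 5 pairs that shared most were ZNF701 with ZNF888, ZNF600 with ZNF611, ZNF611 with ZNF808, ZNF761 with ZNF765, and ZNF765 with ZNF813. ZNF888 had 8.05% of its stretches in ZNF701, and ZNF600 had 5.92% in ZNF611. How the authors' counting treated reads with several alignments is not given in the sources used here.

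The differences of paired copies are given side by side. ZNF701 had 169 and 189 normalized counts in the knockout libraries, against 143 and 125 in the parental ones (log2 difference 0.42 ± 0.18), while ZNF888 had 119 and 109, against 101 and 107 (0.13 ± 0.19). ZNF611 had 386 and 311, against 281 and 276 (0.31 ± 0.17), and ZNF600 had 214 and 195, against 170 and 161 (0.30 ± 0.16). ZNF765 had 268 and 281, against 217 and 212 (0.35 ± 0.14), and ZNF813 had 139 and 137, against 116 and 118 (0.24 ± 0.18). The groups were apart in all 6 of these genes, whereas in ZNF761, which shares sequence with ZNF765, they overlapped. The difference between copies was not tested.

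The 9 tested members with at least 5% of their stretches elsewhere had a median log2 difference of 0.30, and 7 of them lay above both parental libraries. The 30 members with less had a median of 0.33, and 21 of them did. ZNF577, ZNF528 and ZNF331, with log2 differences of 0.80, 1.19 and 0.47, shared only 0.162%, 0.689% and 0.0864% of their stretches. A second kind of sharing is by overlap: 72.1% of the stretches of ZNF320 and 53.1% of those of ZNF468 occur elsewhere only in a gene that overlaps them in the annotation, and these 2 genes overlap each other on the same strand.

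**Figure D3:**
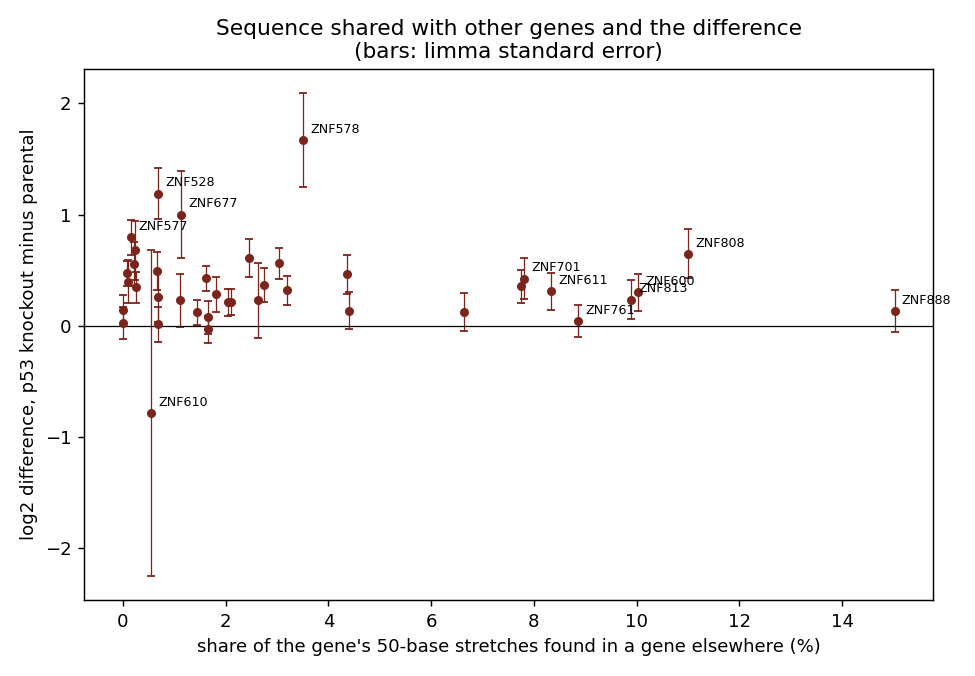
Log2 difference between knockout and parental libraries (vertical axis, bars are limma standard errors) of the 39 tested members against the share of their 50-base stretches found in a gene elsewhere (horizontal axis, %). Members at under 5% and members at 5% or more had medians of 0.33 and 0.30.

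Genes lying between the members were not higher as a group. Between ZNF473 and ZNF331 the table has 78 rows not named as zinc finger genes, of which 25 were tested. Knockout library 2 had a median of -0.27 over them and knockout library 8 one of 0.03, and 6 lay above and 8 below both parental libraries. All but 3 of them lie between ZNF473 and ZNF175. Inside the dense part, PPP2R1A, the scaffold subunit of the phosphatase PP2A, had 7483 and 8597 normalized counts in the knockout libraries, against 8381 and 8465 in the parental ones. DNA copy number was not measured, and its part in the differences was not tested.

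Inside the dense part the other 2 tested rows went apart. TPM3P9, a pseudogene that overlaps ZNF761 on the same strand, had 397 and 358 normalized counts in the knockout libraries, against 274 and 288 in the parental ones. SPACA6P-AS had 8.42 and 6.84, against 13.2 and 15.8. Of 7 further rows with a ZNF name, 3 were tested and all 3 lay above both parental libraries. The pseudogene ZNF702P had 259 and 115 in the knockout libraries, against 64.7 and 72.8 in the parental ones, and ZNF137P had 65.2 and 76.2, against 42.8 and 42.1. ZNF528-AS1 was the third.

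Other zinc finger genes of the same chromosome arm showed smaller medians in the same direction. On 19q, the 60 tested zinc finger genes distal to ZNF331, on the side of the telomere, had medians of 0.16 in knockout library 2 and 0.21 in knockout library 8, and 30 of them (50%) lay above both parental libraries. The 70 proximal to ZNF473 had medians of 0.10 and 0.22, and 34 (48.6%) lay above both. In both groups knockout library 8 had the higher median, whereas in the 40-gene cluster it was knockout library 2.

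On 19p, 81 tested zinc finger genes had medians of -0.24 in knockout library 2 and -0.04 in knockout library 8, with 16 (19.8%) above and 25 (30.9%) below both parental libraries. The 268 on other chromosomes had medians of -0.02 and -0.0050, with 48 (17.9%) above both. Whether the cluster differs from these groups was not tested, since genes are not replicates and the cluster was chosen with its values known.

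**Figure D4:**
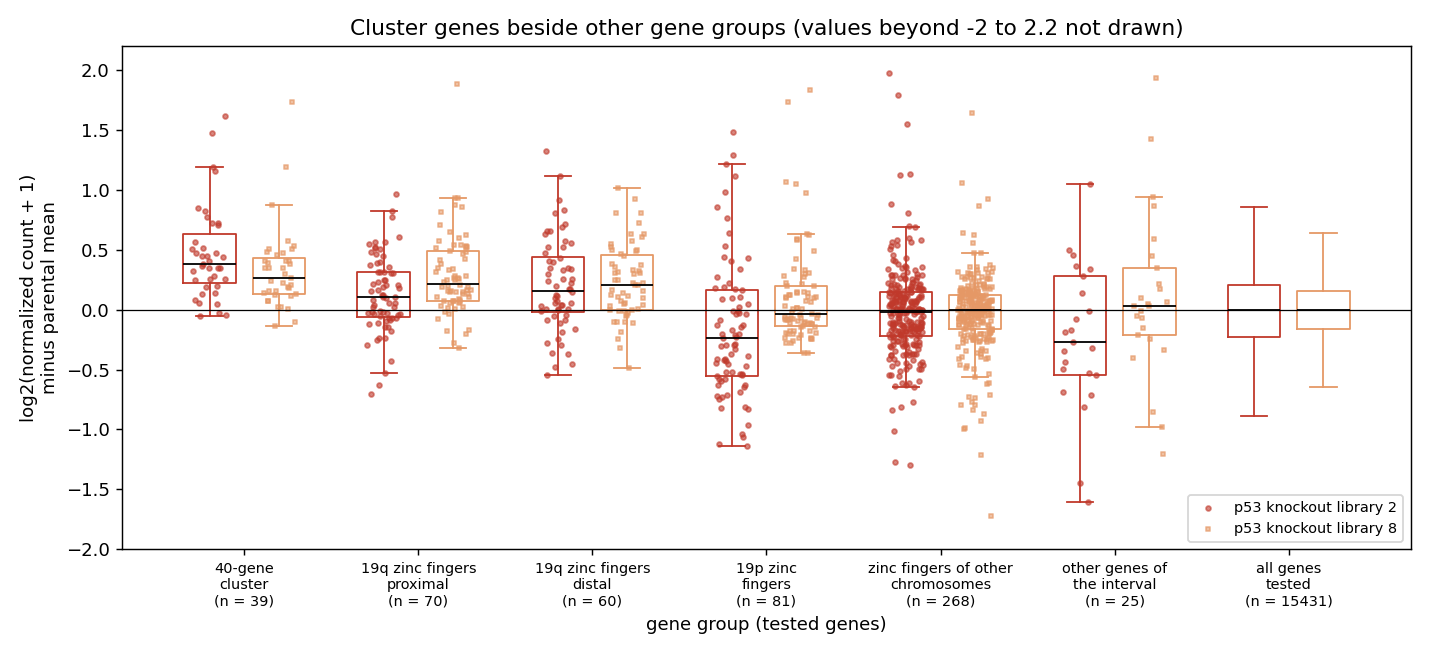
Log2(normalized count + 1) minus the parental mean (vertical axis) in knockout library 2 (left box of each pair) and knockout library 8 (right box) for tested genes of the cluster and of 6 other gene groups (horizontal axis). Boxes span the quartiles with the median as a line, whiskers reach 1.5 times the box, points are genes, and values beyond the axis are not drawn. The cluster's medians are 0.38 and 0.27, and those over all genes tested are -0.0012 and -0.00078.

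The cofactors through which KRAB zinc finger proteins act had no shared direction. Of 20 listed genes, all tested, 6 lay above and 8 below both parental libraries in both knockout libraries. Over all genes tested these shares were 22.8% and 23.7%. At an adjusted p of 0.05, limma, edgeR and DESeq2 each called 0 of the listed genes. Without adjustment, limma held 0 higher and 1 lower at p under 0.05. Their median log2 difference was 0.0084. TRIM28, the common corepressor, had 17092 and 16854 normalized counts in the knockout libraries, against 15988 and 17045 in the parental ones (log2 difference 0.04 ± 0.09, limma adjusted p = 0.873). The groups overlapped for TRIM28.

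SETDB1, which writes the H3K9me3 mark, had 3170 and 2763 normalized counts in the knockout libraries, against 3787 and 3409 in the parental ones (log2 difference -0.28 ± 0.11, limma adjusted p = 0.422). ATF7IP, which stabilises SETDB1, had 2898 and 3013, against 3706 and 3397 (-0.26 ± 0.08, limma adjusted p = 0.368). DNMT1, UHRF1 and TRIM66 also lay below both parental libraries, with log2 differences of -0.23, -0.21 and -0.19. None of these 5 genes was called. The 6 cofactors above both parental libraries had smaller differences, up to 0.18 for HDAC1.

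The library labels were checked with 15 genes that p53 is known to activate. Of these, 12 lay below both parental libraries in both knockout libraries and 0 above; DESeq2 called 9 lower, and limma called 0 at an adjusted p of 0.05, with 10 lower without adjustment at p under 0.05. The other 3 were CDKN1A, PHLDA3 and TIGAR. CDKN1A had 4898 and 2603 normalized counts in the knockout libraries, against 3561 and 3889 in the parental ones, and PHLDA3 had 6137 and 1678, against 3463 and 3296. In both of these genes knockout library 2 lay above and knockout library 8 below the parental pair. The libraries held 30334054 and 32160978 recovered reads in the knockout group and 29230554 and 36331894 in the parental group.

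Some markers of the melanoma line lay apart between the groups. SOX10 is a transcription factor of the melanocyte lineage. It had 28125 and 25662 normalized counts in the knockout libraries, against 30033 and 29587 in the parental ones (DESeq2 adjusted p = 0.869). The pigmentation genes MLANA and TYR were at 0 in all 4 libraries. Of 6 tested melanocyte markers, 4 lay below both parental libraries (SOX10, MITF, S100B and S100A1) and 1 above (PMEL). Over all genes tested, 23.7% lay below both and 22.8% above. MITF, the regulator of pigment cell genes, had 849 and 1050, against 1645 and 1562 (DESeq2 adjusted p = 0.00272). Of 4 markers of undifferentiated melanoma, JUN alone lay above both parental libraries, with 1008 and 1601 in the knockout libraries, against 421 and 474 in the parental ones (DESeq2 adjusted p = 3.6e-06). limma called neither gene, and the part of these markers in the differences of the cluster was not tested.

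Among markers of other cell types, the epithelial gene CDH1 and the blood genes HBB and HBA1 were at 0 in all 4 libraries, but other listed genes were not. The keratin KRT18 had 6126 and 5569 normalized counts in the knockout libraries, against 6548 and 6494 in the parental ones, and KRT8 had 926 and 1208, against 1147 and 1014. The sum over 6 epithelial markers was 7087 and 6804 in the knockout libraries, against 7742 and 7575 in the parental ones. That over 7 fibroblast markers was 1305 and 1016, against 998 and 1015, and CD14, a marker of monocytes, had 11.6 and 6.84, against 12.1 and 9.65. The part of these markers in the differences of the cluster was not tested.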

How the data were processed

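Per the labels' protocols, DNase-treated Trizol RNA went through poly(A) selection into directional NEBNext libraries. Per the submitters' processing notes, the build was hg38 and the tools were STAR, Picard, HTSeq, deepTools and DESeq2. Their versions, the annotation and the strand setting were not given in the sources used here. The deposited table holds a normalized signal, counts scaled by the authors with 1 factor for each library: recovered reads came out whole within 0.001 for 100% of values, and the factors (0.950 and 1.02 in knockout libraries 2 and 8, 0.912 and 1.14 in parental libraries 1 and 2) equal median-of-ratios factors of the recovered counts. Such values are not divided by gene length. Libraries of a group were not duplicates: a chi-square statistic divided by its degrees of freedom came to 65.5 for the knockout pair and 5.85 for the parental pair.

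The test was limma 3.58.1 (trend) on log2(normalized count + 1). It covered 15431 genes at 10 or more in 2 or more libraries, and p-values were adjusted by Benjamini-Hochberg over all of them. The design had named edgeR for raw counts; edgeR 4.0.16 (quasi-likelihood) and DESeq2 1.42.0 were run on recovered reads as alternatives and called 0 and 398 genes. The log2 scale understates differences of weak genes. Fits were checked on simulated data. Positions and exon lengths are from GENCODE 29 (23823 symbols with 1 locus), promoters from RefSeq.

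The members and lists were chosen with earlier results of these data known. Genes named in full, besides those marked as given after their values were seen, were the 8 tested members with the largest differences whose groups did not overlap, the 6 whose knockout libraries differed most, the 4 highest and 4 lowest in parental level per kb, members that were not tested, the ends of the cluster, and the 5 pairs sharing most sequence (by transcripts, since no protein table was used here). Of the cofactors, TRIM28, SETDB1 and the 4 with the next largest differences are named. The targeted gene's own transcript is not reported here.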

Additional observations from a re-analysis of the deposited data

How the results depend on the processing

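No paired analysis was possible because the knockout libraries are numbered 2 and 8, unlike the replicate numbers in the labels. Over all genes limma called 0; it called 102 with no filter on low values, and DESeq2 called 398. Leaving out 1 library gave 0 to 5149 calls over all genes (3117 without knockout library 2, 5149 without knockout library 8) and 0 to 13 among the members: 7 of 37 members (18.9%, against 20.5% of all genes tested) were called without knockout library 2 and 13 of 38 (34.2%, against 33.8%) without knockout library 8, all higher, and 0 without either parental library. Counted in either direction, the members' shares are near those of all genes. The share of all genes called higher alone is not given here, so the direction of the members' calls has no background. A lone library is there assumed to vary like the other group. DESeq2 called 1 member and 9 of the 15 p53 targets. Without knockout library 2 or 8, limma called 12 or 13 p53 targets and 4 or 6 cofactors, and 0 of either without a parental library.

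The cluster's median of 0.31 ran from 0.27 to 0.37 when 1 library was left out. The median of knockout library 2 ran from 0.33 to 0.40 and was 0.36 over genes with at least 1 CPM in 2 libraries; that of knockout library 8 ran from 0.25 to 0.29. With 1 library left out, 30 to 34 members lay above all parental libraries and 0 to 2 lay below them. Fewer libraries make both conditions easier to meet, so a rise from 28 is no added support. Shares of all genes under these conditions were not computed. Chosen after seeing the data, leaving out members that overlap another row or share at least 5% of their stretches elsewhere left 15 genes, with medians of 0.28 for both knockout libraries, 0.45 for library 2 and 0.34 for library 8; 9 lay above both parental libraries, and in 12 the knockout libraries lay on the same side. TMM factors kept 28 above both. Leaving out ZNF473, also chosen after seeing the data, and a pseudocount of 0.1 could not change that count. ZNF473 was not among the 28, and a pseudocount does not alter the order of the libraries. Of 24 named members, 19 had a log2 difference above 0 in each refit that could be run with 1 library left out. In all of these but ZNF649 and ZNF160 the groups did not overlap, so leaving out 1 library could not change the sign. The other 5 changed sign: ZNF473, ZNF175, ZNF665, ZNF761 and ZNF610, the last from -1.64 to 1.16. ZNF677 ran from 0.53 to 1.47. ZNF578 could be refitted only without a parental library, and ZNF610 only without knockout library 8 or parental library 2, since they otherwise failed the filter. Depth limits ZNF610, ZNF534 and ZNF578, which had under 30 reads in every library.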
